A study of Mus musculus with 9 samples.

Results

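The 32 genes described here encode the machinery that builds and loads the photoreceptor cilium: the BBSome and its helpers, the intraflagellar transport (IFT) complexes, proteins of the connecting cilium, and kinesin motors. They were chosen by name, and all 32 were found among the 47729 Ensembl gene identifiers of the count table and passed the count filter in each comparison. Whole retinas were profiled by RNA sequencing in 3 groups, all of C57Bl6/J background and each with 3 libraries. In the Yap CKO group both floxed Yap alleles were combined with Rax-CreERT2, a Cre active in Müller glia once tamoxifen is given. Controls were floxed for Yap and had no Cre. Mice of both groups received 4-hydroxytamoxifen at P10, and their retinas were taken at P60. C57 mice were wild type, with no floxed allele and no Cre, and their retinas were taken at P30 and came from an earlier series. For the controls the genotype label says Yap CKO, which goes against the series' design text, and the latter was used. The names of both P60 groups carry the letters MNU, for which the labels describe no treatment.

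In a rod, the outer segment is a modified cilium, joined to the cell body by a narrow connecting cilium through which every membrane protein of the outer segment has to pass. IFT trains move along the axoneme, with IFT-B particles carried outward by kinesin-2 and IFT-A particles needed for the return. The BBSome is a coat-like complex that rides these trains and removes proteins from the cilium. Mutations in many of these genes cause retinal degeneration, as part of Bardet-Biedl syndrome, nephronophthisis or Leber congenital amaurosis, although most are expressed in ciliated cells of many tissues.

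Total counts were 13760765 to 16808499 in C57 and 34739679 to 37629264 at P60. C57 and the P60 groups differ at once in age, floxed allele, tamoxifen, the letters MNU, source series and sequencing depth, and these cannot be told apart. By Xist and Ddx3y, the 3 controls were all male, while C57 and Yap CKO each held 2 female libraries and 1 male. One C57 column carries a number that no sample description shares and is called the unnumbered C57 library. Summed over 18 rod genes, the normalised read count (CPM, counts scaled to library size) was 117066 to 137195 in C57 and 1298 to 26317 at P60, and 9 cone genes went from between 1721 and 2220 to between 74.2 and 375. The rod level used below is the mean log2(CPM + 1) of the 18 rod genes. It was 11.79, 11.71 and 11.62 in C57, 9.30, 7.12 and 8.33 in controls 1, 2 and 3, and 9.40, 8.54 and 5.48 in Yap CKO 1, 2 and 3. In whole tissue, fewer cells of a type and less RNA per cell cannot be told apart. Yap CKO 3 stood apart with the lowest rod level and with 1105 CPM of lens genes, against at most 24.8 elsewhere. Yap1 was at 57.6 to 67.4 CPM in controls and at 15.3 to 24.3 CPM in Yap CKO (log2 fold change -1.60 ± 0.17 SE, adjusted p = 0.0327).

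Per kilobase of exon, Arl6 was the most abundant of the 32 in C57, at 88.8 ± 12.7 CPM per kb (SD, n = 3). Arl6 is the small GTPase that recruits the BBSome to membranes. Kif3a followed at 35.0 ± 3.77, Bbs7 at 31.6 ± 3.69 and Bbs4 at 28.4 ± 4.80 CPM per kb, and neighbours in this order of 3 differed by less than their SD. At the other end stood Spata7 with 1.60 ± 0.18, Nphp4 with 1.38 ± 0.92 and Kif17 with 0.67 ± 0.25 CPM per kb. The order changed at P60: the mean of Bbs7 was 5.37 CPM per kb in controls and 5.09 in Yap CKO, while that of Kif3a was 29.3 in controls and 29.4 in Yap CKO. The plot of all 32 genes in the 9 libraries shows C57 to the right of both P60 groups for most BBSome genes and mixed with them at the bottom.

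**Figure D1:**
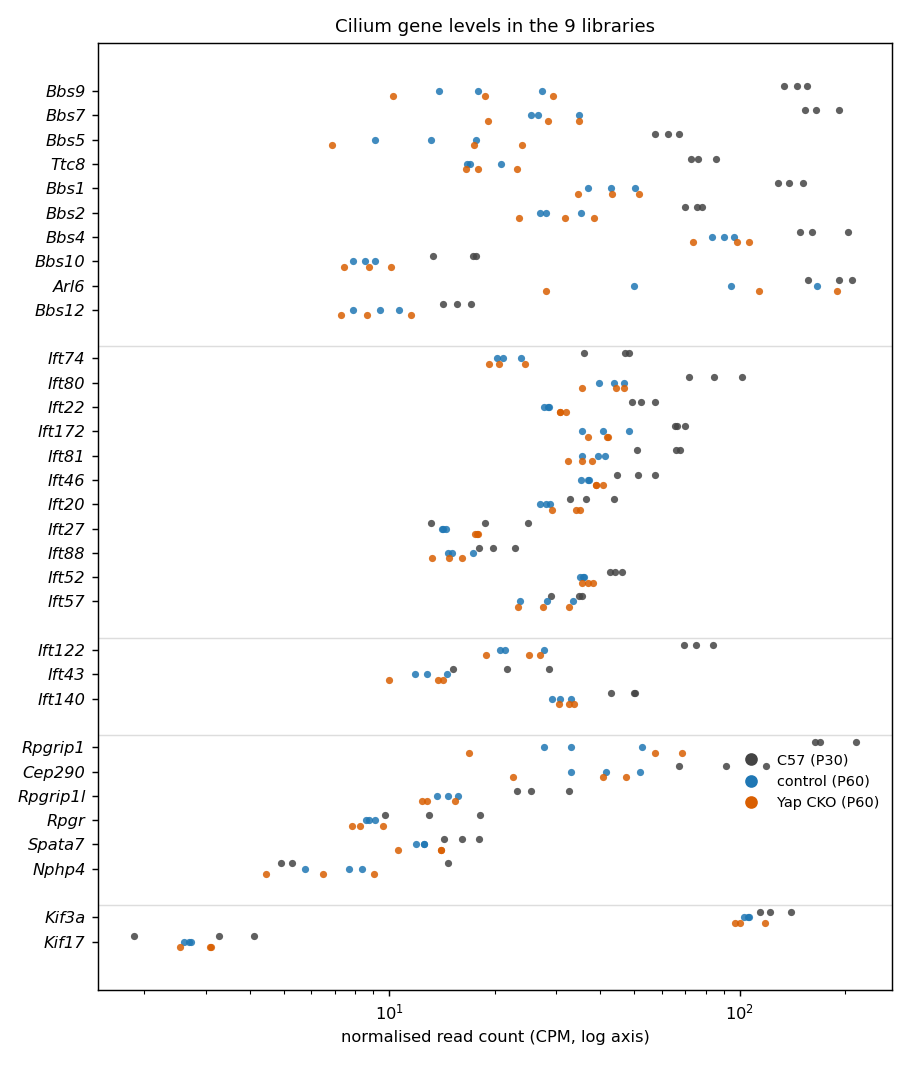
Normalised read count (CPM, log axis) of the 32 genes, grouped by complex, with 1 point per library (dark: C57, blue: control, orange: Yap CKO). The 3 C57 points of Bbs9 lie between 134 and 156 CPM, above all 6 P60 points at 10.2 to 29.4 CPM, whereas those of Nphp4 and Kif17 lie among the P60 points.

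The promoters of genes built into cilia often hold an X-box, the site bound by RFX factors, and those of photoreceptor genes a site for the homeobox factor CRX. RefSeq promoters (GRCm38.p6, from 250 bases before to 50 bases after a gene's start) were found for 29 of the 32 genes. On both strands, an X-box type spelling (arms GTNNCC and GGNNAC around 2 free bases) was in the promoters of 6 of the 29 (Bbs1, Bbs4, Bbs7, Ift22, Ift57 and Nphp4), against 1.88% of all 32851 promoters. This spelling was picked among 20 after their counts had been seen. A stricter one (arms GTTNCC and GGNAAC around 2 free bases) was found for 1 of the 29, against 0.451% of all promoters, and 5 others of the 20 for 0. A looser X-box consensus, with many positions fixed only as purine or pyrimidine, was found for 5 of the 29, against 12.7% of all promoters. With 1 more base between its arms it was found for 10 of the 29, against 14.8%. The 29 genes have 33 promoters and are counted per gene, whereas the shares of all are per promoter. The CRX type spelling TAATCC was found for 2 of the 29, Bbs1 and Rpgrip1, against 7.06% of all promoters. The X-box and CRX type matches of Bbs1 did not overlap, and a match is a description of letters, not of binding. The stretches below read 5′ to 3′ along the gene, with the matching letters in capitals. They are the exon-free 162 bases upstream of Bbs7, a gene that fell strongly, the X-box type windows of the other 5 genes, and both CRX type windows.
Bbs7 upstream, chr3:36613478-36613639, minus strand: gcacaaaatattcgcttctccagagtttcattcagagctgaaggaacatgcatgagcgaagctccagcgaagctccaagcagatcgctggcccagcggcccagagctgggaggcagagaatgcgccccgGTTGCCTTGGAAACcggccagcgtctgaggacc
Bbs1, X-box type: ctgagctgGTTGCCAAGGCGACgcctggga
Bbs4, X-box type: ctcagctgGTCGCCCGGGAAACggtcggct
Ift22, X-box type, first site: ctgtcaggGTTTCCTGGGCTACtgcgcagc
Ift22, X-box type, second site: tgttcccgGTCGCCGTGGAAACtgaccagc
Ift57, X-box type: cgggtctgGTTGCCGTGGTGACcggctgcc
Nphp4, X-box type: cggtgcccGTCTCCTAGGTAACgcgccagc
Bbs1, CRX type: tctagtctTAATCCctaaaaag
Rpgrip1, CRX type (on the opposite strand): aaaggcctGGATTAgtgtctcc
The matches of Bbs1 (chr19:4906613-4906626) and Bbs4 (chr9:59353472-59353485) of the X-box type and of Rpgrip1 (chr14:52110875-52110880) of the CRX type lie in annotated exons. Those of Bbs7 (chr3:36613497-36613510), Ift22 (chr5:136908087-136908100 and chr5:136908117-136908130), Ift57 (chr16:49699207-49699220) and Nphp4 (chr4:152477911-152477924), and the CRX type match of Bbs1 (chr19:4906819-4906824), lie outside exons. The 6 genes with an X-box type match did not move alike: their log2 fold changes in controls against C57 ran from -2.59 for Bbs7 to -0.21 for Nphp4.

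Against C57, the cilium genes were lower in both P60 groups, to very different degrees. In controls, 26 of the 32 fell and 0 rose (edgeR quasi-likelihood test, adjusted p under 0.05), where 22.4% of all genes tested fell and 23.1% rose. In Yap CKO, 23 of the 32 fell and 0 rose, where 20.2% of all genes fell and 20.3% rose. The median log2 fold change of the 32 was -0.83 in controls and -0.82 in Yap CKO, beside 0.03 and 0.02 over all genes tested and -3.20 and -3.23 for the rod genes. Fitted values of all 32 genes were below 0 in both comparisons, from -2.92 to -0.21 and from -2.94 to -0.13. Both comparisons use the same C57 libraries and are given side by side for that reason. Genes of reactive glia summed to 209 to 298 CPM in C57 and 3010 to 3734 CPM at P60, and genes of Müller glia to 7947 to 8872 and 4543 to 5759 CPM. The Müller glia genes did not move alike: 6 of 9 fell and 2 of 9 rose in each comparison. The part of these glial genes in the change of the cilium genes was not tested. The libraries did not overlap for 27 of the 32 in controls, where 58.9% of all genes did not overlap in either direction, and for 25 of the 32 in Yap CKO (55.1% of all genes).

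**Figure D2:**
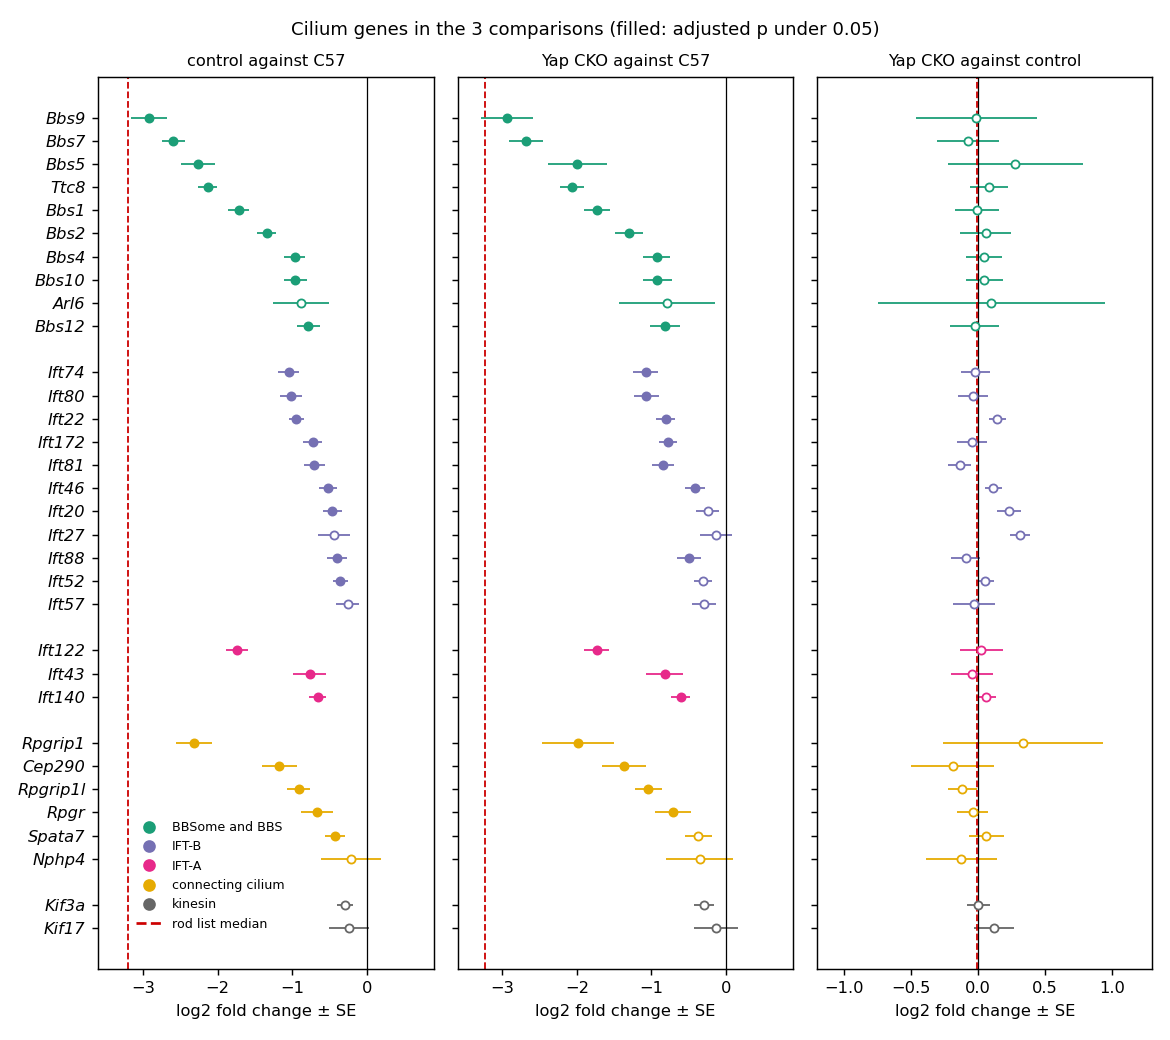
Log2 fold change ± SE of each gene in the 3 comparisons, filled where the adjusted p was under 0.05, with the median of the 18 rod genes as a dashed line. Bbs9 (-2.92 and -2.94) comes closest to the rod median of -3.20 and -3.23 in the first 2 panels, while no point is filled in the third.

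The BBSome fell as a whole. All 8 of its subunits, counting the small subunit Bbip1, which is not among the 32 genes, were lower in both P60 groups, from -2.92 to -0.87 on the log2 scale in controls and from -2.94 to -0.93 in Yap CKO. Bbs9, a core subunit, was at 134, 156 and 146 CPM in C57 1, C57 2 and the unnumbered C57 library. It was at 27.3, 13.9 and 17.9 CPM in controls 1, 2 and 3 and at 29.4, 18.8 and 10.2 CPM in Yap CKO 1, 2 and 3. The P60 libraries did not reach the C57 range, and the lowest was Yap CKO 3. The log2 fold change was -2.92 ± 0.24 in controls (adjusted p = 1.0e-04) and -2.94 ± 0.35 in Yap CKO (adjusted p = 5.5e-04).

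Bbs7, which binds Bbs2 and Bbs9 in that core, was at 154, 165 and 192 CPM in C57, at 34.7, 26.6 and 25.4 CPM in controls and at 34.8, 28.3 and 19.1 CPM in Yap CKO. Again the groups were separate, with log2 fold changes of -2.59 ± 0.16 and -2.68 ± 0.23 (adjusted p = 3.1e-05 and 9.5e-05). Bbs5, a subunit that binds phospholipids, was at 57.3, 62.6 and 67.2 CPM in C57, at 17.7, 9.1 and 13.1 CPM in controls and at 23.9, 17.5 and 6.88 CPM in Yap CKO. The 6 P60 libraries of Bbs5 spread more widely than those of Bbs7. Its log2 fold change was -2.26 ± 0.23 in controls (adjusted p = 2.3e-04), and it was 3.99-fold lower in Yap CKO (SE 0.40 on the log2 scale, adjusted p = 0.0063, and 0.059 without the unnumbered C57 library).

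Ttc8 encodes BBS8, a subunit with tetratricopeptide repeats. It was at 72.7, 85.6 and 75.9 CPM in C57, at 20.8, 17.0 and 16.7 CPM in controls and at 23.1, 18.0 and 16.6 CPM in Yap CKO. Its P60 libraries lay close together, and it fell by 2.13 and 2.06 on the log2 scale. Bbs1, the subunit that binds ARL6, was at 129 to 151 CPM in C57, 37.0 to 50.3 CPM in controls and 34.6 to 51.7 CPM in Yap CKO. No library overlapped, and the log2 fold change was -1.72 ± 0.14 in controls and -1.73 ± 0.17 in Yap CKO. Bbs2 changed by -1.34 and -1.30 and Bbs4 by -0.96 and -0.93, and each was lower in all 6 P60 libraries than in any C57 library. The chaperonin-like Bbs10 and Bbs12, which help assemble the complex, were among the scarcer members, at 13.3 to 17.7 and 14.2 to 17.1 CPM in C57. Both fell, Bbs10 by 0.96 in controls and 0.92 in Yap CKO and Bbs12 by 0.78 and 0.82, although the call of Bbs12 in Yap CKO was lost without C57 2 or Yap CKO 2 (largest adjusted p 0.061).

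Arl6 spread more widely over the P60 libraries than the subunits of the complex it recruits. It was at 157, 192 and 209 CPM in C57, at 167, 49.9 and 94.3 CPM in controls and at 190, 114 and 28.0 CPM in Yap CKO. Control 1 and Yap CKO 1, the P60 libraries with the highest rod level, lay within the C57 range, and the others lay below it. The log2 fold change was -0.88 ± 0.37 in controls (adjusted p = 0.089) and -0.79 ± 0.64 in Yap CKO (adjusted p = 0.37). In controls this value was near those of the subunits Bbip1 (-0.87) and Bbs4 (-0.96). Without control 1 the first comparison passed the threshold, as it did with DESeq2. A longer protein form of ARL6 is known from the retina, and gene counts do not separate the forms.

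The 11 IFT-B genes moved less, with a median log2 fold change of -0.52 in controls, where 9 of 11 fell, and -0.50 in Yap CKO, where 7 of 11 fell. The largest changes were those of Ift74 (-1.05 ± 0.14 and -1.08 ± 0.17), which binds tubulin together with Ift81, and of Ift80 (-1.02 ± 0.15 and -1.07 ± 0.17), a subunit of the peripheral subcomplex. Ift74 was at 36.0 to 48.5 CPM in C57 and at 19.2 to 24.4 CPM over the 6 P60 libraries, and Ift80 at 71.6 to 101 and 35.4 to 46.7 CPM, in each case without overlap. Ift22, a Rab-like GTPase of the core, fell by 0.94 and 0.81 and Ift172, a large peripheral subunit, by 0.73 and 0.78, while Ift81 fell by 0.70 and 0.85.

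The remaining IFT-B genes showed smaller differences. Ift46 fell by 0.52 in controls, a call kept in all 6 fits that left out a library, and by 0.42 in Yap CKO, where the call was lost in 4 of 6 such fits. Ift88, whose mutation gave the classic mouse model of defective IFT, fell by 0.40 and 0.50, and each call was lost in 5 of 6 such fits. Ift52, a core subunit, was at 42.7, 46.3 and 44.1 CPM in C57 and at 35.0 to 38.1 CPM at P60, a gap of -0.35 ± 0.10 in controls (adjusted p = 0.021) and -0.31 ± 0.12 in Yap CKO (adjusted p = 0.067). Ift20, which also works at the Golgi, changed by -0.46 ± 0.13 and -0.24 ± 0.15, of which the first passed the test. Ift20 and Ift52 in controls each lost their call in 4 of 6 fits. Ift57 (-0.25 and -0.30) and the small GTPase Ift27 (-0.43 and -0.13) passed in neither comparison.

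All 3 IFT-A genes were lower in both groups. Ift122, a core subunit, was at 84.1, 74.9 and 69.4 CPM in C57, at 27.7, 20.7 and 21.4 CPM in controls and at 26.9, 25.0 and 18.9 CPM in Yap CKO. The P60 libraries lay far below C57, with log2 fold changes of -1.74 ± 0.15 and -1.73 ± 0.17 (adjusted p = 1.1e-04 and 1.8e-04). Ift140, another core subunit, fell by 0.66 and 0.61 and the peripheral Ift43 by 0.76 and 0.82. Ift43 ranged from 15.2 to 28.5 CPM within C57 itself, and its call was lost in 3 of 6 fits in controls and 5 of 6 in Yap CKO.

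Among the 6 connecting cilium genes, Rpgrip1 stood lowest against C57. Its product anchors RPGR at the connecting cilium. Rpgrip1 was at 165, 170 and 215 CPM in C57, at 52.6, 27.6 and 33.1 CPM in controls and at 68.5, 57.3 and 16.9 CPM in Yap CKO. All 6 P60 libraries were below C57, and the Yap CKO libraries spread widely. The log2 fold change was -2.31 ± 0.25 in controls (adjusted p = 2.9e-04) and -1.99 ± 0.48 in Yap CKO (adjusted p = 0.017, and up to 0.12 when C57 1, the unnumbered C57 library or Yap CKO 2 was left out). Cep290, a large protein that links the membrane to the microtubules of the transition zone, was at 67.2, 91.4 and 119 CPM in C57, at 51.8, 33.1 and 41.5 CPM in controls and at 47.3, 40.8 and 22.6 CPM in Yap CKO. The groups did not overlap, and Cep290 changed by -1.17 ± 0.24 and -1.37 ± 0.30.

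Rpgrip1l, a relative of Rpgrip1 at the transition zone of many ciliated cells, was at 23.1 to 32.7 CPM in C57 and 12.4 to 15.8 CPM at P60 (-0.91 ± 0.15 and -1.04 ± 0.18). Rpgr, the protein anchored by RPGRIP1, fell by 0.67 and 0.71, and both calls were lost in 5 of 6 fits without a library. Spata7, which binds RPGRIP1, changed by -0.42 ± 0.13 in controls (adjusted p = 0.033, lost in 4 of 6 fits) and -0.37 ± 0.18 in Yap CKO (adjusted p = 0.13). Nphp4 was at 14.8, 5.26 and 4.93 CPM in C57, so that a single C57 library exceeded all P60 libraries (4.44 to 9.07 CPM) and the others lay among them. Its log2 fold change was -0.21 ± 0.40 in controls and -0.35 ± 0.45 in Yap CKO, and 0.48 and 0.34 without C57 1.

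Neither kinesin gene passed the test. Kif3a, a motor subunit of kinesin-2, was at 114, 122 and 140 CPM in C57, at 103, 106 and 106 CPM in controls and at 96.8, 100 and 119 CPM in Yap CKO. Controls lay just below C57 and Yap CKO 3 lay inside the C57 range, with log2 fold changes of -0.29 ± 0.11 (adjusted p = 0.065) and -0.30 ± 0.14 (adjusted p = 0.12). The lower level in controls passed with DESeq2, in a fit of all 9 libraries and without C57 1. Kif17, a second kinesin-2 motor, was detected at 1.87 to 4.11 CPM in all 9 libraries and changed by -0.24 ± 0.27 and -0.13 ± 0.29.

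Loss of Yap in Müller glia left no cilium gene past the threshold. In Yap CKO against control, 0 of 32 rose and 0 fell, where 0.0181% of all genes rose and 0.181% fell. At an unadjusted p under 0.05 there were 2 of 32, Ift20 and Ift27, where 17.8% of all genes passed. Fitted values ran from -0.19 to 0.34 with standard errors of 0.06 to 0.85, the widest for Arl6 (0.10 ± 0.85), Rpgrip1 (0.34 ± 0.59) and Bbs5 (0.28 ± 0.50). For those 3 genes a 2-fold rise lies within 2 standard errors of the fitted value, and for Arl6 a 2-fold fall as well.

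Ift27, which is needed for the BBSome to leave the cilium, had the smallest adjusted p. It was at 14.2, 14.6 and 14.2 CPM in controls and at 17.9, 17.9 and 17.6 CPM in Yap CKO, with no overlap and little spread (0.31 ± 0.08, adjusted p = 0.11). Its C57 values of 25.0, 18.8 and 13.2 CPM spanned both groups. Ift20 was at 28.1, 27.0 and 28.8 CPM in controls and 35.0, 34.2 and 29.2 CPM in Yap CKO (0.23 ± 0.09, adjusted p = 0.23). Ift22 and Ift46 also did not overlap between the groups, so that 4 of 32 members, all IFT-B, were separate and higher in Yap CKO. Of all 16539 genes tested, 2156 were separate and higher in Yap CKO, a share close to that of the members. A further 1995 were separate and lower (25.1% in either direction).

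Calls for Ift27 and Ift20 depended on the setting. With the rod level as a covariate, Ift27 (0.31, adjusted p = 0.030), Ift20 (0.25, adjusted p = 0.041) and Bbs5 (0.35, adjusted p = 0.026) were higher in Yap CKO, in a fit that called 9.90% of all genes. Without Yap CKO 3, Ift27 (0.32, adjusted p = 0.043) and Ift20 (0.31, adjusted p = 0.033) were called along with 8.76% of all genes, and DESeq2 called Ift27 (0.31, adjusted p = 0.034) with 6.16%. Hspb11, which encodes IFT25, the binding partner of IFT27, differed by 0.01 ± 0.12. Sex was not balanced: Ddx3y, a Y-linked gene, was at 78.4 to 78.8 CPM in all 3 controls and at 71.9 CPM in Yap CKO 3, and at 0 in Yap CKO 1 and 2, where Xist was at 174 and 208 CPM. The part of sex in these differences was not tested.

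The P60 libraries differ among themselves in rod level, and this was used, without the C57 libraries, to ask which cilium genes follow the rod level. The slope of a gene is its log2 change per log2 unit of rod level in a fit with the group as a term. It was positive past the threshold for 14 of 32 genes (6.77% of all genes) and negative for 0 (3.72% of all genes). The median slope of the 32 was 0.10, beside 0.00 over all genes and 1.07 for the rod genes, and 9 cone genes had a median of 1.03, so rods and cones are not separated by it. Of the other marker lists, the medians furthest from 0 were -1.66 for 6 lens genes (1 negative past the threshold), 0.35 for 7 pigment epithelium genes (1 positive) and -0.19 for 6 vascular genes (4 negative). In both P60 groups, 16 of the 32 genes ranked the 3 libraries exactly as the rod level did, where 11.3% of all genes did so.

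Arl6 had the steepest slope of the 32, at 0.71 ± 0.03 (adjusted p = 3.5e-07). Its log2(CPM + 0.5) minus the rod level was -1.91 to -1.47 in 5 of the 6 P60 libraries and -0.64 in Yap CKO 3, against -4.49 to -3.91 in C57. Arl6 thus kept close to the rod genes among the P60 libraries and not between C57 and P60. Rpgrip1 followed with 0.50 ± 0.04, Bbs5 with 0.45 ± 0.03, Bbs9 with 0.38 ± 0.04 and Cep290 with 0.28 ± 0.02. These 5 slopes passed in each of the 6 fits that left out a P60 library, with the largest adjusted p being 0.011 for Rpgrip1 without Yap CKO 3.

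Weaker slopes were found for Nphp4 (0.24), Bbs7 (0.20), Bbs2 (0.17), Bbs1 (0.15), Ift122 (0.14), Ift57 (0.13), Ift43 (0.13), Bbs4 (0.12) and Ift80 (0.10). Each of these 9 lost its call in at least 1 fit without a library. Without Yap CKO 3, the library with the lowest rod level and the lens genes, 7 of the 14 slopes passed, and without Yap CKO 1, 6 did. Ift22, Ift27, Ift46, Ift52 and Ift140 had slopes between -0.01 and 0.01. Kif3a had the lowest slope, -0.07 ± 0.02 (adjusted p = 0.059), and passed as negative with upper-quartile scaling and with DESeq2.

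**Figure D3:**
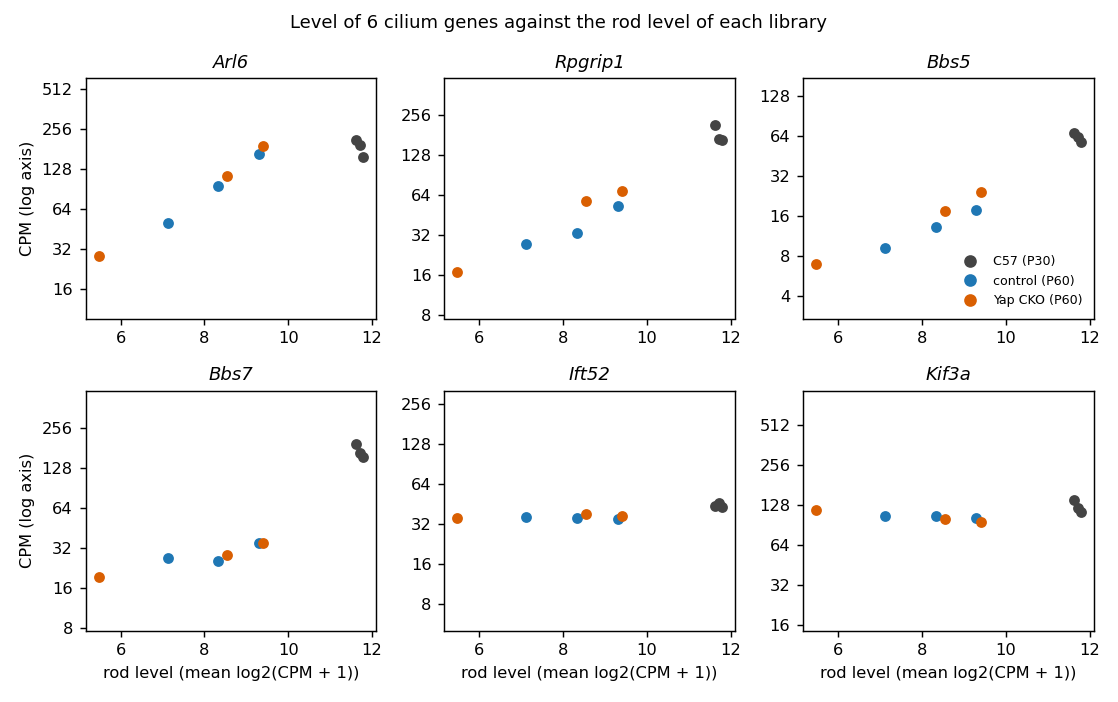
Level of 6 cilium genes (CPM, log axis spanning the same ratio in each panel) against the rod level of each library, with 1 point per library (dark: C57, blue: control, orange: Yap CKO). Arl6 climbs from 28.0 to 190 CPM across the P60 libraries and reaches the C57 points, Bbs7 stays at 19.1 to 34.8 CPM far below C57, and Ift52 stays at 35.0 to 38.1 CPM.

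Genes lower by at least 1 log2 unit in both P60 groups and past the threshold in both are here said to have the pattern of rod genes. This is a description of fitted values and not an assignment to a cell type, and falls of this size were not confined to rod genes. Among 9 Müller glia genes the lowest log2 fold change was -2.35 in controls and -2.50 in Yap CKO, where 6 of the 9 fell and 2 rose in each comparison. The rod pattern held for 11 of the 32: Bbs1, Bbs2, Bbs5, Bbs7, Bbs9, Ttc8, Ift74, Ift80, Ift122, Cep290 and Rpgrip1, where 7.69% of the 15665 genes tested in both comparisons met the same limits. For 20 of the 32 the fitted change was under 1 log2 unit in both groups, the general pattern, which 74.9% of those genes had, and Rpgrip1l was in between. The 11 make up 6 of 10 BBSome and BBS genes, 2 of 11 IFT-B genes, 1 of 3 IFT-A genes, 2 of 6 connecting cilium genes and 0 of 2 kinesins. Just inside the limit lay Ift80 (-1.02 in controls) and Ift74 (-1.05), and just outside it Bbs4 and Bbs10 (-0.96 each).

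The slope on the rod level, which leaves out the C57 libraries, only partly followed this division. A positive slope passed for 9 of the 11 genes with the rod pattern, all but Ttc8 (0.11, adjusted p = 0.082) and Ift74 (0.08, adjusted p = 0.092). It passed for 5 of the 20 with the general pattern, Bbs4, Arl6, Ift43, Ift57 and Nphp4. Even so, no member with the rod pattern had a slope near the rod median of 1.07: Bbs7 and Ttc8, lower than in C57 by over 2 log2 units, had slopes of 0.20 and 0.11.

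**Figure D4:**
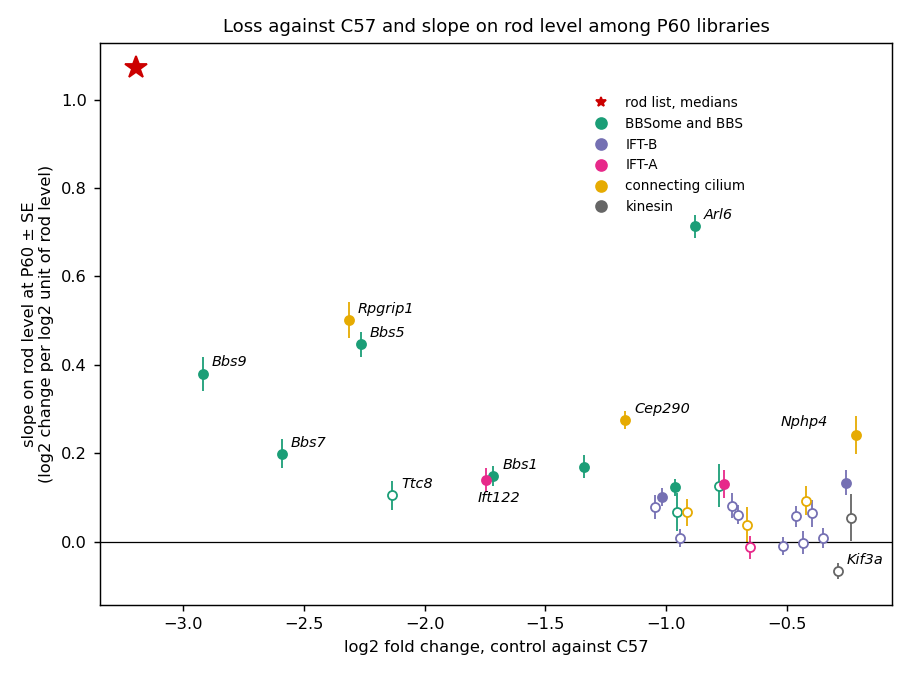
Log2 fold change of controls against C57 (horizontal) and slope on the rod level among P60 libraries with its SE (vertical), filled where the slope passed, with 1 point per gene and a star for the medians of the 18 rod genes. Arl6 lies high at -0.88 and 0.71, Bbs7 low at -2.59 and 0.20, and the star at -3.20 and 1.07.

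Paired relatives were compared directly within libraries. The log2 ratio of Rpgrip1 over Rpgrip1l (each CPM plus 0.5) was 2.81, 2.72 and 2.70 in C57, 1.71, 0.99 and 1.15 in controls and 2.12, 2.11 and 0.43 in Yap CKO. Every P60 library was below every C57 library, by 1.33 on average (2.74 ± 0.06 SD, n = 3, against 1.42 ± 0.68 SD, n = 6). The exact permutation test gave p = 0.024 (two-sided, 0.048 after adjustment over 2 ratios), where the smallest p possible was 0.012. Without a P60 library the exact permutation p was 0.036 before adjustment, and without a C57 library it was 0.071, with differences of -1.47 to -1.13. Kif17 over Kif3a did not separate the groups (-5.18 ± 0.62 against -5.01 ± 0.20, exact permutation p = 0.61).

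Other genes of the same machinery, outside the 32, moved in the same range. Of 7 further BBSome and Bardet-Biedl genes, 5 fell in controls and 4 in Yap CKO, among them Bbip1 (-0.87 and -0.96), the BBSome regulator Lztfl1 (-0.93 and -1.02), Wdpcp (-1.09 and -1.07) and the chaperonin-like Mkks (-0.80 and -0.66). Of 11 further IFT genes, 7 fell in each comparison, with Ttc30a1 (-1.87 and -1.85) and Ttc30b (-1.65 and -1.66), close copies of the IFT70 subunit whose reads may be split uncertainly, followed by Wdr19 (-1.08 and -1.16) and Rabl2 (-0.97 and -0.96). Tulp3, an adaptor that delivers receptors on IFT-A, rose in both groups (1.62 and 1.63), the reverse of the IFT-A genes.

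Of 9 further motor genes, 6 fell in each comparison. They included Dync2li1 (-1.54 and -1.38), Wdr60 (-1.46 and -1.46) and Tctex1d2 (-1.39 and -1.37), all of dynein-2, the motor of return transport. Kif3b, the partner of Kif3a, fell by 0.92 and 1.01, and Kif7, a kinesin of Hedgehog signalling, rose from a mean of 0.64 CPM to 3.0 and 2.64 CPM. Of 23 further transition zone and basal body genes, 15 fell in controls and 14 in Yap CKO, led by Cc2d2a (-1.33 and -1.30), Tmem237 (-1.75 and -1.68), Tctn2 (-1.66 and -1.52) and Tctn3 (-0.96 and -0.96).

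The genes of the photoreceptor axoneme and of lipidated cargo fell furthest, with a median of -2.05 in controls (13 of 14 fell) and -2.03 in Yap CKO (9 of 14). Examples were Lca5 (-2.33 and -2.31), Arl13b (-2.10 and -2.18), Arl3 (-1.66 and -1.67) and Pde6d (-1.42 and -1.23). Their median slope on the rod level was 0.43, and 12 of 14 slopes were positive past the threshold. Of 6 RFX and FOXJ1 factors tested, 0 fell in controls, and Rfx3 (-0.64) and Rfx7 (-0.51) fell in Yap CKO. None of these lists had a gene called in Yap CKO against control. Genes of motile cilia summed to 29.3 to 33.2 CPM in C57 and 20.8 to 24.5 CPM at P60. Of 9 tested, 1 fell and 1 rose in controls, and 2 fell and 2 rose in Yap CKO.

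The authors' deposited table of 305 genes, all with an absolute log2 fold change of at least 0.587 between Yap CKO and control, held 0 of the 32 genes. Counts of several members are uncertain because their exons overlap another gene and the strand setting of the counting is not given in the sources used here. On the opposite strand these were Rpgrip1 with Supt16, Cep290 with 4930430F08Rik, Ift57 with Gm15518, Bbs4 with Adpgk, Ift88 with Ift88os, Arl6 with 4930547E14Rik and Bbs12 with Cetn4. On the same strand they were Rpgr with Srpx, Kif17 with Sh2d5 and Bbs12 with Gm43439. Within C57, library ratios moved with exon length over 11353 genes (Spearman rho across genes -0.22 to -0.35). Over the 32 genes the rho within C57 was -0.08 to -0.25. Within the P60 groups, only control 1 and Yap CKO 1 were set against the others of their group, with rho of -0.16 to 0.07 over the 11353 genes. Genes are not independent replicates. Long genes such as Cep290 and Rpgrip1 were highest in the unnumbered C57 library, and short ones such as Ift20, Ift27 and Ift43 highest in C57 1. Others went the other way: the long Ift122 was highest in C57 1 and the short Arl6 in the unnumbered C57 library. The part of exon length in the results was not tested.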

How the data were processed

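Per the labels, a TruSeq protocol that keeps the strand was run on 1 µg of total RNA per library. Each P60 sample was 1 frozen retina. Whether samples of a group came from separate animals is not stated, so p-values may measure only the spread between these samples. GRCm38, HISAT2 2.1.0, edgeR and featureCounts are named in the submitters' processing notes. The authors deposited whole-number read counts per Ensembl gene, not normalised, and a table with log2 fold changes of their own. The 9 columns of that table with per-library values were not used.

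Each comparison was fitted alone on its 6 libraries with edgeR 4.0.16 (R 4.3.3): filterByExpr (minimum count 10, total 15), TMM scaling, robust quasi-likelihood F-tests, and Benjamini-Hochberg adjustment over all genes tested at 0.05. All adjusted p-values come from this test unless DESeq2 1.42.0 or another tool is named. CPM shown are TMM-scaled over all 9 libraries. The slope test adds the rod level to the group term over the 6 P60 libraries. Gene positions and exon lengths are those of GENCODE M21 (GRCm38). The scripts were tested on simulated data. The members and gene lists were chosen with earlier results of these data known. Named outside the members were Yap1, genes of each list with the smallest p among those called in both comparisons with C57 (up to 4 per direction), and Hspb11, Ddx3y, Xist, Rfx3 and Rfx7, which were named after their values were seen. One gene that this rule selects is not reported here. Alternatives were RLE and upper-quartile scaling, no count filter, DESeq2, limma-voom 3.58.1, a fit of all 9 libraries, a replicate block, thinning of P60 libraries to C57 depth, a rod covariate, no group term, other pseudocounts, and leaving out each library.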

Additional observations from a re-analysis of the deposited data

How the results depend on the processing

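Lower calls against C57 stayed at 20 to 28 of 32 genes in controls and 17 to 25 in Yap CKO over all alternatives run, with 0 higher calls. Leaving out 1 library of the slope fit gave 6 to 15 positive slopes (14 with all libraries), and the replicate block gave 5 positive slopes. Yap CKO against control gave 1 higher call with DESeq2, 3 with the rod covariate and 0 to 2 when a library was left out. Upper-quartile scaling and DESeq2 each gave 1 negative slope. The ratio of Rpgrip1 over Rpgrip1l differed by -1.47 to -1.13 on the log2 scale when a library was left out, and without C57 1, C57 2 or the unnumbered C57 library the exact permutation p was 0.071 before adjustment. Kif17 over Kif3a ranged from -0.18 to 0.40. Fitted values changed sign for genes near 0. When a library was left out, Nphp4 ranged from -0.48 to 0.48 in controls and from -0.64 to 0.34 in Yap CKO, Kif17 from -0.50 to 0.040 and from -0.40 to 0.14, and Ift27 in Yap CKO from -0.34 to 0.11. After thinning, Kif17 in Yap CKO was at 0.071. Slopes ranged from -0.023 to 0.11 for Bbs10, -0.027 to 0.0056 for Ift27, -0.017 to 0.013 for Ift46, -0.034 to 0.018 for Ift52, -0.027 to 0.033 for Ift140, -0.013 to 0.077 for Rpgr and -0.034 to 0.074 for Kif17. The slope of Ift27 was 0.0021 with no count filter and 0.00091 with the replicate block, and that of Ift140 was 0.011 with the block. The cause was not tested. Same-numbered control and Yap CKO libraries deviated together with r of 0.62, -0.15 and 0.01. Control 2 and Yap CKO 3, each with the lowest rod level of its group, gave r of 0.56. Such values can follow the rod level and do not decide whether the numbers pair the libraries. The C57 comparisons with the block used libraries numbered 1 and 2. With no count filter the median of all genes moved to 0.19 in controls and 0.23 in Yap CKO. Kif17 has the fewest reads, at 1.87 to 4.11 CPM over the 9 libraries.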
